A study of Mus musculus with 9 samples.

Results

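The regions described here are stretches of the mouse heart genome that carried a strong NR4A2 chromatin immunoprecipitation sequencing (ChIP-seq) signal in control hearts and a weaker one in hearts made to express NR4A2. They were chosen by 3 conditions on the deposited signal, in CPM, the reads of a region scaled to the size of its library. The mean of the 3 control hearts was at least 40 CPM, the mean of the 3 NR4A2 hearts was at most 0.67 times that, and each NR4A2 value lay below each control value. Of the 16884 regions in the table, 7955 reached the control level and 609 met all 3 conditions. Because the 6 hearts selected the regions, the values below describe the members and do not test them, except where mice left out of the choice are used.

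Chromatin came from whole heart ventricle, with 3 mice per group. Nr4a2-icTg mice carried a conditional Nr4a2 knock-in at ROSA26 and a tamoxifen-inducible Cre recombinase, MerCreMer, under the αMHC (Myh6) promoter, which acts in cardiomyocytes. Controls were littermates with αMHC-MerCreMer and no knock-in named in the labels. Both groups received 1 intraperitoneal injection of 40 mg/kg tamoxifen at 8 to 9 weeks of age and were examined on day 3, so Cre and tamoxifen were common to both. Whole ventricle also holds endothelial cells, fibroblasts and leukocytes, in which the Myh6 promoter does not drive Cre. The table held ChIP signal only, so the level of NR4A2 itself was not measured in it.

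NR4A2 (Nurr1) is an orphan nuclear receptor of the NR4A family, whose members are induced as immediate early genes and can act without a known hormone. It can bind DNA as a single molecule at the NBRE, a nuclear receptor half-site with additional bases before it, and in pairs at other arrangements of the half-site. Heart muscle cells run on fatty acids, cycle calcium through the sarcoplasmic reticulum at each beat and are coupled through gap junctions, and several of the regions lay over genes of these functions.

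The region with the highest control signal lay over the microRNA locus of Mir1a-1 and Mir133a-2, whose products are among the most abundant microRNAs of striated muscle. It spanned chr2:180385428-180404396, 18969 bp, and the 5p product of Mir1a-1 is shown from the RefSeq table of build GRCm38.p6. No other product of Mir1a-1 or Mir133a-2 was available there, so the sequence and seed are those of the 5p product alone. Capitals mark the seed, bases 2 to 8.
mmu-miR-1a-1-5p, chr2:180389057-180389079, plus strand: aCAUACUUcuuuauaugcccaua

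For protein-coding genes, 6 promoters whose start site lay inside a member region are shown, because they stand for the fatty acid, energy, gap junction, contractile and growth factor genes described below. Each is the 250 bases before the start in RefSeq (GRCm38.p6), 5′ to 3′ on the strand of the gene. Capitals mark any of 12 motifs, each searched on both strands. The nuclear receptor motifs were AAAGGTCA, which is the NBRE of the NR4A family, CAAGGTCA, an extended site of the kind that estrogen-related receptors bind, and the half-site AGGTCA, which is contained in both of the others. The core promoter motifs were GGGCGG, known as the GC box and bound by Sp1, then TATAAA, known as the TATA box, and the CCAAT box, which NF-Y binds. The others were the cyclic AMP response element TGACGTCA, the E-box CACGTG of basic helix-loop-helix proteins, a site for GATA factors written AGATAA, a site for TEAD factors written GGAATG, a site for ETS factors written CCGGAAG, and the AP-1 site with 1 free base in its middle.
Fabp3 promoter, chr4:130308488-130308737, plus strand: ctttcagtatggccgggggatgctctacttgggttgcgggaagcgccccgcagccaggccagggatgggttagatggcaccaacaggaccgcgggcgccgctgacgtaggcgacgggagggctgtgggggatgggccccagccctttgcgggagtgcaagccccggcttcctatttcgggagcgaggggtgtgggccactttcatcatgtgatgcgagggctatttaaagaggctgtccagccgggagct
Nmrk2 promoter, chr10:81202038-81202287, minus strand: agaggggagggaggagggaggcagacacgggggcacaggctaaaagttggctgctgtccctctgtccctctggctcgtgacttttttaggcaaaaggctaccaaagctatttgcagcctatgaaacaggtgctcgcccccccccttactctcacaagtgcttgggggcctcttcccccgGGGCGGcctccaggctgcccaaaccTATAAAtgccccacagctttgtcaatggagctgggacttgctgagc
Gja1 promoter, chr10:56377050-56377299, plus strand: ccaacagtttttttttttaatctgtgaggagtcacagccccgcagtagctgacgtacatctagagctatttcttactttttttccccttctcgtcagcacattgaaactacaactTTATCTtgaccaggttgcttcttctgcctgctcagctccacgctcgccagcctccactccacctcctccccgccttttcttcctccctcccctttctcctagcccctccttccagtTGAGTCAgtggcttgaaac
Tnnc1 promoter, chr14:31208062-31208311, plus strand: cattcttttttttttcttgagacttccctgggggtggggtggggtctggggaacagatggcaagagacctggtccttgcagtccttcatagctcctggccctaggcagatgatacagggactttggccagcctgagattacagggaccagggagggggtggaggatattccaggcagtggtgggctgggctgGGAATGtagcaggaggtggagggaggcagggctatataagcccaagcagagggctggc
Pparg promoter, chr6:115362099-115362348, plus strand: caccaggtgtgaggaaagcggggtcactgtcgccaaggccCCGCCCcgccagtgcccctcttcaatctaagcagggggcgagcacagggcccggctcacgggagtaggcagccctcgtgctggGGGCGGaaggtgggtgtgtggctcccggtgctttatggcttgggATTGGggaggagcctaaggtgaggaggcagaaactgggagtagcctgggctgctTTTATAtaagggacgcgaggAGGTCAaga
Vegfb promoter, chr19:6987652-6987901, minus strand: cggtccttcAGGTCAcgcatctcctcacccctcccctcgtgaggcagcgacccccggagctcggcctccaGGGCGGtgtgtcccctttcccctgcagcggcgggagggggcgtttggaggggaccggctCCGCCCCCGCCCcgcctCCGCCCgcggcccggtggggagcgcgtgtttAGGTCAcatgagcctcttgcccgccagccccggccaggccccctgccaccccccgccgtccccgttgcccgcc
The Fabp3 promoter held none of the 12 motifs. Pparg held 1 copy of AGGTCA and Vegfb 2 copies, and the NBRE was in none of the 6. A match is only a match of letters.

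Across the 609 regions, the median signal was 68.6, 73.0 and 79.6 CPM in control mice 1 to 3 and 45.8, 42.6 and 42.9 CPM in NR4A2 mice 1 to 3. The median ratio of NR4A2 to control means was 0.608, a log2 ratio of -0.72, and ratios ran from 0.349 to the limit of the choice at 0.67. In 71 regions the NR4A2 mean was below 0.5 times the control mean. Control mouse 3, the library with the fewest reads, was the highest control in 310 of the 609 regions, against 132 for mouse 1 and 167 for mouse 2. It was also most often the highest in the 7346 other strong regions, in 2940, against 2160 for mouse 1 and 2246 for mouse 2.

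**Figure D1:**
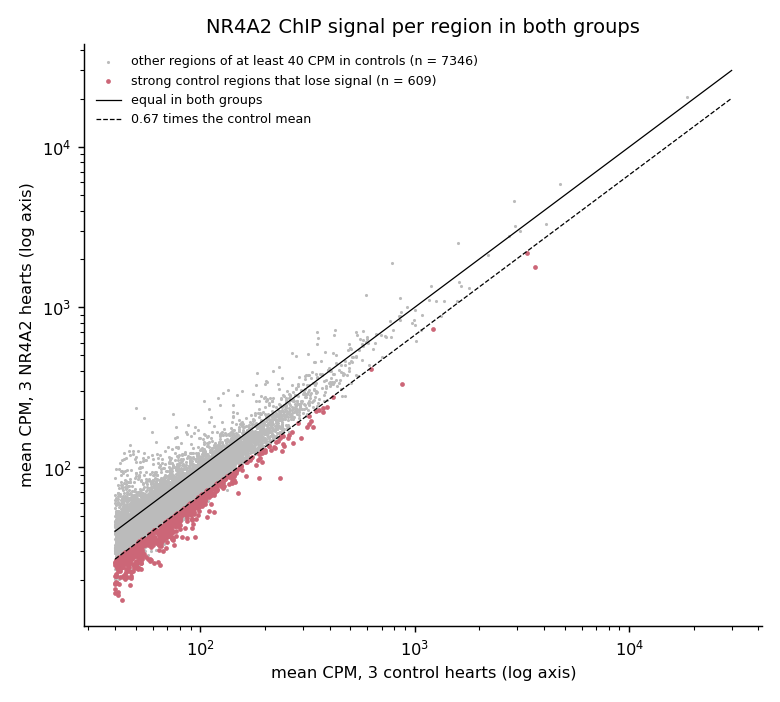
Mean CPM of the 3 NR4A2 hearts (vertical, log axis) against the mean of the 3 control hearts (horizontal, log axis) for the 7955 regions of at least 40 CPM in controls. The 609 members (red) lie on or below the dashed line at 0.67 times the control mean, and most of the other 7346 regions (grey) lie between that line and the solid line of equal signal, with a median ratio of 0.880.

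The lower signal was not limited to the members. The median log2 ratio was -0.21 over all 7955 strong regions and -0.06 over all 16884 regions. Measured against the strong regions, the members' median log2 ratio was -0.51. In the same libraries the regions called higher in NR4A2 hearts took 4.58 to 5.10% of all CPM in control hearts and 12.6 to 15.1% in NR4A2 hearts, while the members took 6.17 to 6.68% and 3.57 to 3.98%. CPM is a share of a fixed total, and the part of that scaling in the lower values was not tested. When the NR4A2 values were rescaled so that the median strong region was equal in both groups, 156 regions met the conditions, all of them among the 609. With reads recovered from the CPM and divided by no library total, 213 regions met them, 174 of them members.

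The libraries held 549700 to 1035856 reads within the regions, control mouse 3 the fewest, and 1 read was worth 0.955 to 1.81 CPM. The median member held 44 to 75 reads in a control library and 27 to 48 in an NR4A2 library. The highest signal of all regions, 14245 to 22443 CPM in control and 18595 to 22709 CPM in NR4A2 hearts, lay over Myh6 and reached Myh7, the cardiac myosin heavy chain genes, and was no member.

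The size of the difference was then measured in mice that had no part in the choice. The conditions were applied to 2 control and 2 NR4A2 mice, and the log2 ratio was taken between the 2 mice left out, for each of the 9 possible pairs. With 4 mice the conditions are easier to meet, and they chose 847 to 1325 regions. In the mice left out, the median log2 ratio of the chosen regions was -0.35 to -0.19 over the 9 pairs (median -0.29), against -0.21 to -0.14 (median -0.18) for all strong regions in the same mice. The chosen regions were lower in the NR4A2 mouse in 64.7 to 76.2% of cases, against 63.3 to 67.1% of all strong regions. The difference between chosen and all strong regions ran from 0, in the pair of NR4A2 mouse 2 and control mouse 3, to -0.16. The 9 pairs share mice and are not independent. The median of -0.72 in all 6 mice therefore includes what the choice itself selected, and the signal in unused mice was lower by much less.

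**Figure D2:**
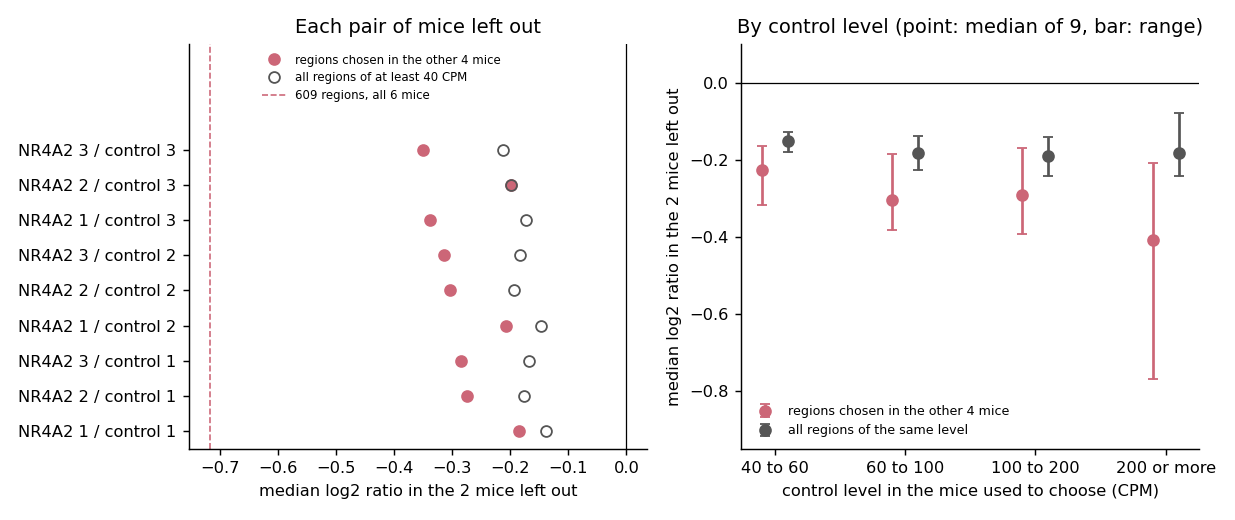
Left, the median log2 ratio of NR4A2 to control in the 2 mice left out, for regions chosen in the other 4 mice (filled) and for all regions of at least 40 CPM (open), with the median of the 609 regions in all 6 mice as a dashed line at -0.72. Right, the same by control level, where points are the median and bars the range of the 9 pairs, and the chosen regions of 200 CPM or more have the lowest median, -0.41.

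The chosen regions with the highest signal had the lowest median in the mice left out, with ranges that overlapped those of the other levels. Among chosen regions of 200 CPM or more in the control mice used, 29 to 82 per pair, the median log2 ratio in the mice left out was -0.41 (range -0.77 to -0.21), and a median of 93.3% of them (range 67.4 to 100%) were lower there. All regions of that level had a median of -0.18 and 71.8% lower. At 40 to 60 CPM the chosen regions had a median of -0.23 (range -0.32 to -0.17) and all regions of that level -0.15. This division by level was added after the values had been seen.

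In the fit across all regions, limma called 353 of the 609 members lower in NR4A2 hearts, where it called 3.17% of all regions lower, and it called none of the members higher, which the choice itself fixes, where it called 14.7% of all regions. The absence of overlap between the groups, shown by 11.7% of all regions, was a condition of the choice. The authors' deposited call of lower signal covered 228 of the 609, and 1.95% of all regions. All of these calls use the same 6 hearts as the choice, so they are not further evidence. By level, all 37 members of at least 200 CPM passed the limma test, and 60 of the 211 members under 60 CPM did (28.4%).

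The limits of the choice separated regions with nearly the same values. At the level limit, Irf7 (control mean 40.01 CPM) and Smc5 (40.05 CPM) lay inside, and regions near Rbm38 (39.97 CPM) and Gm7244 (39.997 CPM) outside. At the ratio limit, Rps19 and Telo2 were inside at 0.6696 and 0.6698, and Zeb1 and Snrk outside at 0.67003 and 0.6703. At the overlap limit, Rrp1 was inside with its closest values at 70.66 CPM in an NR4A2 heart and 70.70 CPM in a control heart. Nr4a1, the NR4A2 paralog, was outside, with 55.3, 94.4 and 101 CPM in control and 55.4, 37.8 and 49.2 CPM in NR4A2 hearts.

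The member over Mir1a-1 and Mir133a-2 had 4213, 3821 and 2916 CPM in control mice 1 to 3 and 1945, 2275 and 1094 CPM in NR4A2 mice 1 to 3. The highest NR4A2 heart was well below the lowest control heart, and the means of 3650.05 ± 665 and 1771 ± 609 CPM (SD, n = 3 each) gave a ratio of 0.485. It overlapped the host transcript Mir1a-1hg and the noncoding RNA B230312C02Rik, and the nearest protein-coding gene, Gata5, was 49925 bp away.

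Second in control signal was a region over Atp2a2, which encodes SERCA2, the pump that returns calcium to the sarcoplasmic reticulum. It covered chr5:122478997-122503487 and had 3754, 3452 and 2753 CPM in control hearts and 2158, 2565 and 1809 CPM in NR4A2 hearts. The ratio was 0.656, and the highest NR4A2 heart was close to the lowest control heart. None of the 8 other regions at Atp2a2 met the conditions, because in each of them an NR4A2 value lay above a control value, and 5 of them were called lower by limma. Ratios over the 9 regions ran from 0.605 to 0.868.

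Nmrk2 encodes nicotinamide riboside kinase 2, an enzyme of NAD synthesis found in muscle, and lies beside Atcay. One region, chr10:81199404-81207222, held the Nmrk2 start and covered 69.9% of that gene. Its signal was 1348, 1302 and 983 CPM in control hearts and 774, 768 and 646 CPM in NR4A2 hearts, a ratio of 0.602 with a clear gap between the groups. A second member, further on in Atcay, had a ratio of 0.468.

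Fabp3 encodes the heart fatty acid binding protein, which carries fatty acids inside the muscle cell. The region chr4:130309965-130317117 covered 81.8% of Fabp3 and reached into Zcchc17. It had 1042, 779 and 805 CPM in control hearts and 349, 379.9 and 267 CPM in NR4A2 hearts. Every control value was more than 2 times every NR4A2 value, and the means of 875 ± 145 and 332 ± 58.2 CPM (SD, n = 3 each) gave a ratio of 0.380, the lowest of the members above 200 CPM after Lrrc2 at 0.366.

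The other regions among the 8 highest lay at Crip2, Gm34296, Gja1 and Pnrc1. Crip2, a LIM-domain protein gene, had 644, 637 and 586 CPM in control and 420.1, 429 and 385 CPM in NR4A2 hearts, so that the mice of each group were close together and the ratio was 0.661. Gm34296, a predicted gene, also had a ratio of 0.661. Pnrc1, a nuclear receptor coactivator gene, had a ratio of 0.629, with 351 to 389 CPM in control and 219 to 258 CPM in NR4A2 hearts.

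**Figure D3:**
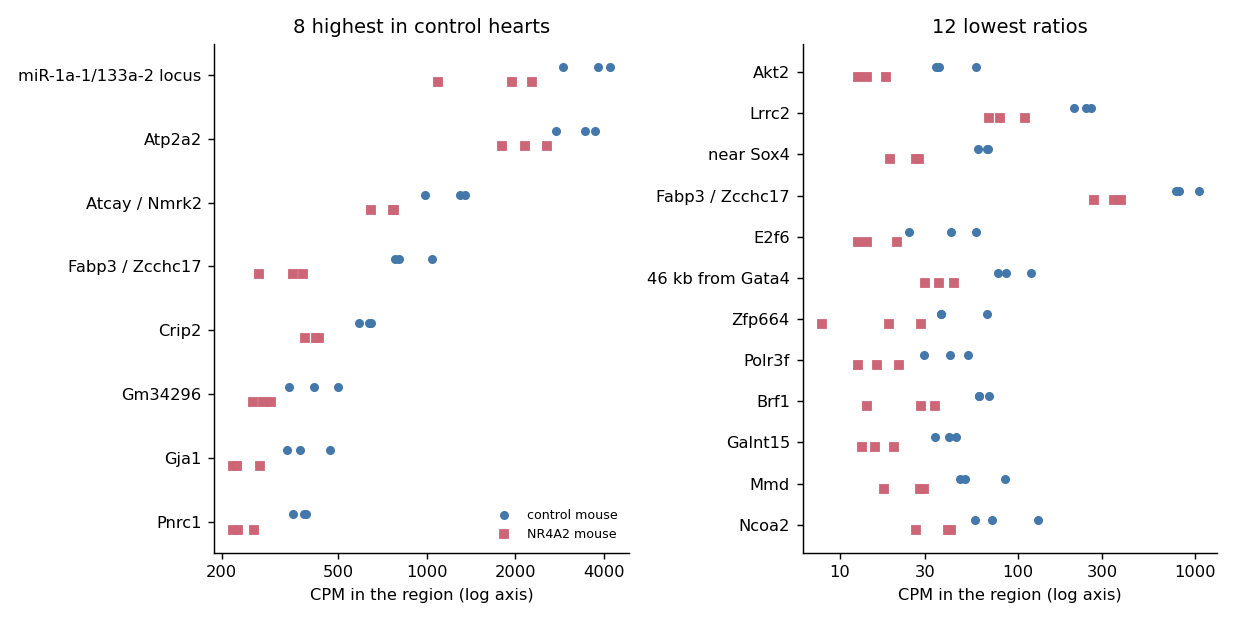
CPM in each of the 3 control mice (circles) and 3 NR4A2 mice (squares) on log axes, for the 8 members with the highest control mean (left) and the 12 with the lowest ratio (right). By the choice no square lies to the right of a circle in any row. The gap is wide for Fabp3 and Lrrc2 and narrow for Atp2a2 and E2f6.

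Most of the 12 members with the lowest ratios were weak. Akt2, a kinase of insulin signalling, had the lowest ratio, 0.349, with 34.8, 36.0 and 57.9 CPM in control and 18.1, 14.2 and 12.6 CPM in NR4A2 hearts. Control mouse 3 was the highest control there, as it was for E2f6, Zfp664, Polr3f, Brf1, Galnt15, Mmd and Ncoa2. E2f6 encodes a repressive E2F factor, Ncoa2 a nuclear receptor coactivator. Their ratios were 0.385 and 0.420.

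Several of the 12 stood on control values that lay close together. Lrrc2, a leucine-rich repeat protein gene, had 257, 243 and 206 CPM in control and 79.3, 110.3 and 69.4 CPM in NR4A2 hearts. A region 4799 bp from Sox4, a transcription factor gene, had 59.4, 68.1 and 66.97 CPM against 19.1, 26.8 and 27.7 CPM, and its ratio was 0.379. Brf1 had 60.5, 60.3 and 68.8 CPM against 28.6, 14.2 and 34.1 CPM.

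Brf1 encodes a subunit of the initiation factor TFIIIB of RNA polymerase III, and Polr3f, at a ratio of 0.405, a subunit of that polymerase. A region 45935 bp from Gata4 had a ratio of 0.391. None of the 7 regions within 10 kb of Gata4 was a member. Limma called 2 of them higher, as it did 14.7% of all regions, and their control means of 13.95 and 11.1 CPM were below the 40 CPM of the choice. A strong region 219 bp from an end of Gata4 had a ratio of 0.497 and missed only the condition on overlap. Zfp664, Galnt15, a glycosyltransferase gene, and Mmd had ratios of 0.394, 0.410 and 0.414.

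Gja1 encodes connexin 43, the main gap junction protein of the working ventricle, and had 6 members among its 9 regions, more than any other gene. The first, chr10:56377044-56379680, held the start shown above and had 468, 369 and 335 CPM in control and 219.6, 271 and 226 CPM in NR4A2 hearts, a ratio of 0.611. In the next region the values were 375, 339 and 290 CPM against 157, 179.7 and 198 CPM, and the ratio was 0.533. For the 6 members the absence of overlap was a condition of the choice. The 3 others, under 40 CPM in controls, also had every NR4A2 value below every control value, as 11.7% of all regions did, and ratios over the 9 ran from 0.389 to 0.663. The regions follow each other within the gene and its 10 kb margin, and were not independent of each other.

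**Figure D4:**
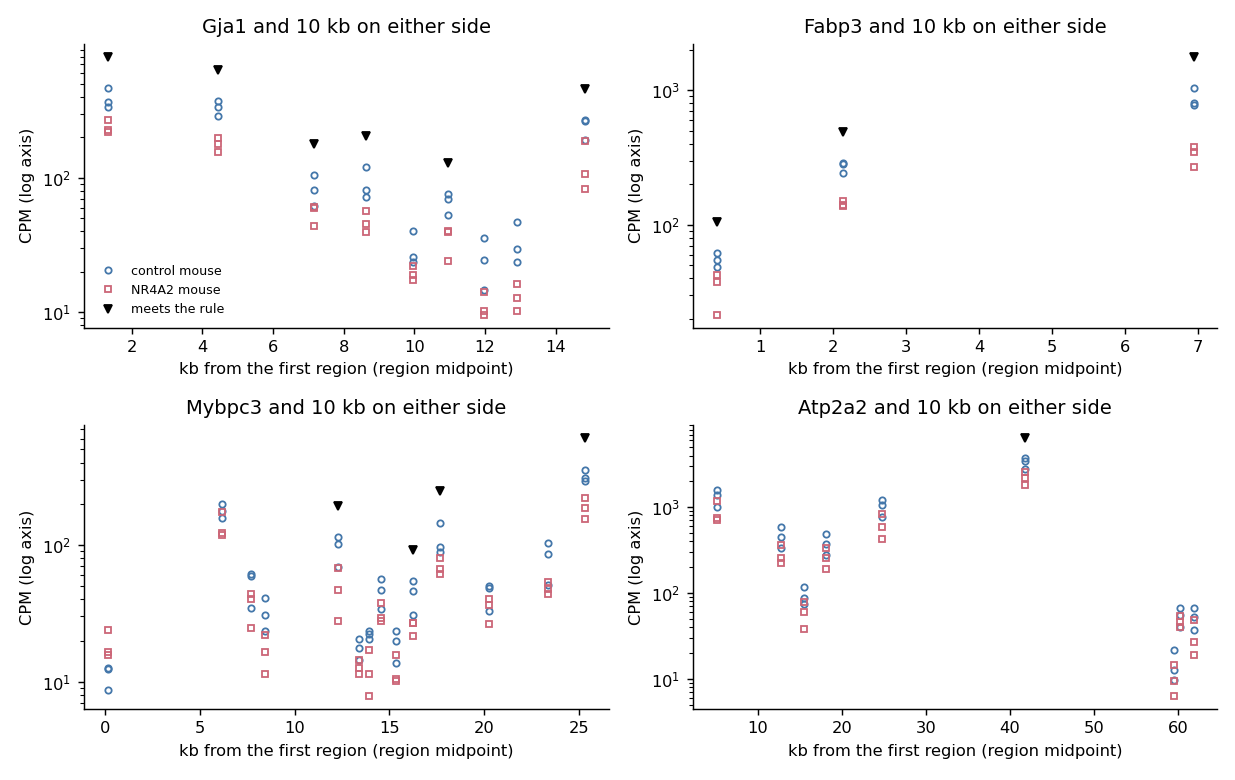
CPM per mouse (control, circles, and NR4A2, squares; log axis) in every region within 10 kb of Gja1, Fabp3, Mybpc3 and Atp2a2, by distance of the region's midpoint from the start of the first region. Triangles mark the members: 6 of 9 at Gja1, 3 of 3 at Fabp3, 4 of 14 at Mybpc3 and 1 of 9 at Atp2a2.

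At Fabp3 all 3 regions were members. The one holding its start had 285, 242 and 286 CPM in control and 137, 149.7 and 140.0 CPM in NR4A2 hearts, a ratio of 0.525 with little spread in either group. The third, 1333 bp outside the gene, had a ratio of 0.616. The same 3 regions count for Zcchc17, whose own start region had a ratio of 1.031.

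Mybpc3 encodes myosin binding protein C of the sarcomere, and Madd, a regulator of Rab proteins, lies next to it. Of 14 regions at Mybpc3, 4 were members, and 3 of the 8 at Madd, of which 3 were shared. The strongest, with 356, 309 and 295 CPM against 186, 222 and 155 CPM, overlapped Madd at a ratio of 0.588. The region holding the Mybpc3 start, with 198, 178 and 157 CPM against 122, 118 and 173 CPM, was not a member, with a ratio of 0.775 and NR4A2 mouse 3 above control mouse 3. A weak region in Spi1 at the same locus had a ratio of 1.661 and was not called in either direction.

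Of the 11154 genes with a region within 10 kb, 821 (7.36%) had a member, and 48 had 2 or more. For 308 genes every region was a member, and 6 of these had more than 1 region. A region called higher by limma stood at 62 of the 821 genes (7.55%) and at 14.2% of all genes with a region. Rrad was one of the 62, with members of 0.518 and 0.434 and a region of 2.823 near Ciao2b.

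The 17 gene lists used here hold 529 entries, and 49 genes in them had a member within 10 kb. Over all strong regions, 7.66% were members, and that share is the background for each list. Beside the counts of genes stands the 7.36% of all genes with a region that had a member, and beside the calls stand the 3.17% of all regions called lower and 14.7% called higher. In the calcium handling list, 7 of 23 genes with a region had a member, and 8 of 47 strong regions (17.0%) were members. The median log2 ratio of its strong regions was -0.31, against -0.21 for all. Limma called 18 of its 123 regions lower (14.6%, against 3.17% of all regions) and 16 higher (13.0%, against 14.7%). Atp2a2 alone held 6 of the 18 and 8 of the 47 strong regions.

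Beside Atp2a2, the calcium members included Rrad, a small GTPase that restrains L-type calcium channels, with 365, 212 and 310 CPM in control and 155, 136 and 169 CPM in NR4A2 hearts. The groups were well apart there, at a ratio of 0.518. Calm3, a calmodulin gene, had 206, 234 and 266 CPM against 175, 136 and 149 CPM, a ratio of 0.651. Itpr1 (inositol trisphosphate receptor), Mcu (mitochondrial calcium uniporter), Jph2 (junctophilin 2) and a region shared by Cacna1c (pore of the L-type channel) and Dcp1b had ratios of 0.470, 0.549, 0.573 and 0.572. The last of these held the start of Dcp1b and not that of Cacna1c, and of the 16 regions at Cacna1c limma called 1 lower and 4 higher.

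In the intercalated disc and ion channel list, 9 of 32 strong regions (28.1%) were members, 6 of them at Gja1, and 4 of 22 genes had one. Gjc1, connexin 45, had a ratio of 0.594, with control values of 55.5 to 56.4 CPM. Popdc2, a membrane protein gene of the Popeye family, stood at 0.573. Limma called 10 of the 101 regions of this list lower (9.90%, against 3.17% of all regions) and 20 higher (19.8%, against 14.7%). Gja1 alone, with 9 neighbouring regions, held 6 of the 10 lower calls.

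For fatty acid use, 6 of 41 genes had a member and 7 of 66 strong regions (10.6%) were members. They were Fabp3, Lpl (lipoprotein lipase, 0.606), Pparg (a nuclear receptor of fat storage, 0.522), Plin4 and Plin5 (lipid droplet proteins, one shared region at 0.629) and Pnpla2 (a triglyceride lipase, through a region in Cracr2b at 0.651). The Plin4 region had 277, 191 and 226 CPM in control and 176, 167 and 93.3 CPM in NR4A2 hearts, so the gap between groups was small. Of the 163 regions of the fatty acid list, limma called 5 lower (3.07%) and 15 higher (9.20%). In the glucose list 1 of 35 genes, Pfkfb2, had a member, through a region holding the start of Yod1, and 1 of its 112 regions was called lower (0.893%, against 3.17% of all regions) and 28 higher (25%, against 14.7%).

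Among sarcomere and Z-disc genes 4 of 38 had a member, and 9 of 170 strong regions (5.29%) were members. The median log2 ratio of the strong regions of this list was 0.14, and limma called 11 of 460 regions lower (2.39%) and 52 higher (11.3%), both shares under those of all regions. Myl3, a ventricular myosin light chain gene, had 337, 195 and 208 CPM in control and 132, 161 and 119 CPM in NR4A2 hearts in its stronger member, a ratio of 0.556. Tnnc1, cardiac troponin C, had members at its start (0.484) and 1310 bp outside the gene (0.459). Synpo2l, a Z-disc protein gene, stood at 0.661 with NR4A2 mouse 3, at 60.5 CPM, far below the other 2.

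In the list of the respiratory chain, TCA cycle and ATP transfer, 3 of 49 genes had a member. Ckm, muscle creatine kinase, had one at its start (0.474) and one inside the gene (0.483). Idh2 and Ndufv1 were reached only through regions in Zfp710 and Nudt8. Nmrk2 was the only one of 14 fetal and stress genes with a member.

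Growth signalling had 5 of 31 genes with a member: Akt2, Vegfb (a vascular growth factor, 0.516), Insr (the insulin receptor, 0.550), Rheb (the GTPase that activates mTORC1, 0.597) and Igf1r (0.626). Of 48 strong regions 5 (10.4%) were members. Limma called 3 of the 96 regions of this list lower (3.13%) and 17 higher (17.7%). Rheb had control values of 101 to 116 CPM and NR4A2 values of 52.97 to 72.5 CPM, with its start inside the region.

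Tead1 (0.625), Nfia (0.535) and a region 937 bp from Mef2d (0.609) were the 3 of 26 cardiac transcription factor genes with a member (11.5%). Of the 36 strong regions of that list 3 (8.33%) were members. Limma called 3 of its 104 regions lower (2.88%) and 15 higher (14.4%), against 3.17% and 14.7% of all regions. Tead1, Nfia and Mef2d each also had a region called higher, and the Mef2d member was not called lower. Rxra (0.605) and Ncoa2 were the 2 of 34 nuclear receptor and coregulator genes (5.88%). In that list 3 of 98 regions were called lower (3.06%) and 16 higher (16.3%). RXRA is the common partner of many nuclear receptors, and its region had 110.7, 97.3 and 150.2 CPM against 77.3, 66.2 and 73.2 CPM. Junb, Cish and Sik1 were the 3 of 37 immediate early and stress kinase genes. Cish, an inhibitor of cytokine signalling, had 131, 109 and 109 CPM against 34.4, 75.7 and 47.9 CPM, a ratio of 0.453, and 6 other regions at that gene were no members.

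For protein turnover, 3 of 30 genes had a member: Ulk1, the kinase that starts autophagy (0.522), Fbxo32, the muscle ubiquitin ligase atrogin-1 (0.517), and Asb2 (0.578 in the stronger of 2). Rbl1 (0.625) and Brca1, the latter through a region in Nbr1, were the 2 of 24 cell cycle genes, and Hspa9 the 1 of 31 chaperone genes.

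Genes of other cell types were among the members. In the endothelial marker list 3 of 15 genes with a region had one: Tie1 (0.532), Erg (0.612) and Eng (0.657). Of its 27 strong regions 3 (11.1%) were members. The median log2 ratio of the 27 was -0.22, against -0.21 for all strong regions. Limma called 3 of its 57 regions lower (5.26%) and 2 higher (3.51%), against 3.17% and 14.7% of all regions. None of the lower calls was at Erg or Eng. Erg had 60.5, 79.8 and 59.7 CPM in control and 32.5, 45.7 and 44.2 CPM in NR4A2 hearts. None of the 8 fibroblast and pericyte genes with a region had a member, and Spi1, through a region in Mybpc3, was the 1 of 6 leukocyte genes. Only 3 of those 8 fibroblast and pericyte genes had a strong region, so few members could be found. The median log2 ratio was -0.34 over the 6 strong regions of the fibroblast and pericyte list. Over the 8 of the leukocyte list it was -0.32, and over all strong regions -0.21. In whole ventricle, fewer cells of a type and less signal per cell cannot be told apart.

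**Figure D5:**
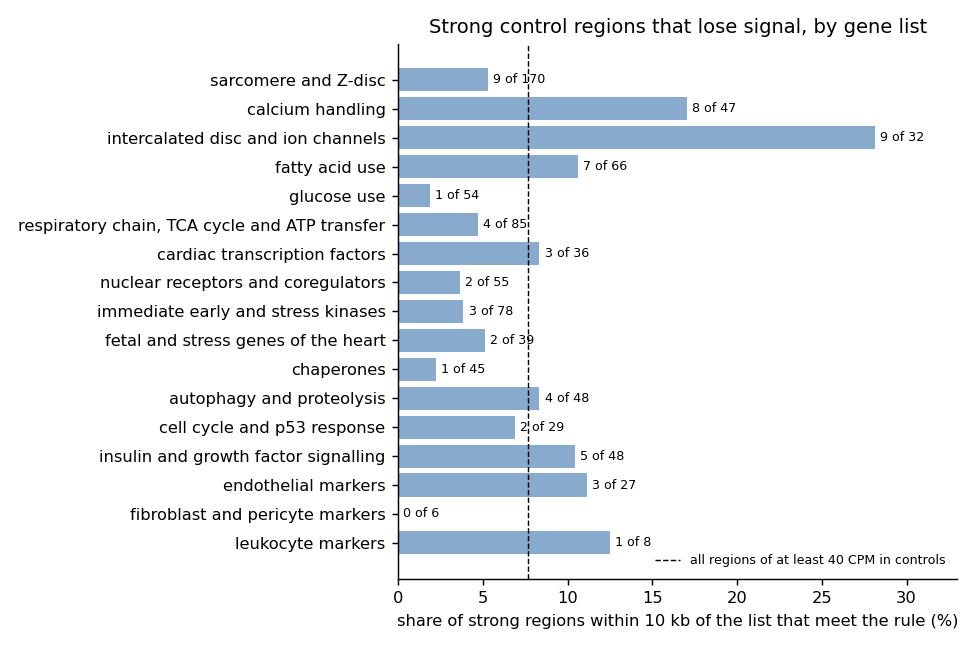
Share of the regions of at least 40 CPM in controls that were members, for each of the 17 gene lists (bars, percent, with the counts beside them). The dashed line is the share over all such regions, 7.66%, and the intercalated disc and ion channel list, with 9 of 32, and the calcium handling list, with 8 of 47, have the longest bars.

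Of the members, 408 of 609 lay within 1 kb of an end of a gene (Wilson 95% interval 63.2 to 70.6%), against 72.1% of the other strong regions and 48.2% of all regions. A gene start lay inside 52.2% of members and 58.2% of other strong regions. Their median length was 591 bp, against 655 bp. Of strong regions under 500 bp, 10.6% were members, and of those of 1 to 2 kb 5.17%, with intervals of 9.30 to 11.96% and 4.05 to 6.57%. The intervals in this paragraph take regions as independent, which neighbouring regions are not, so they do not test these differences. By chromosome the share ran from 5.20% on chromosome 15 to 10.1% on chromosome 12.

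The regions beside the members bear on signal that the conditions did not choose directly. At the genes with a member stood 981 other regions, with a median log2 fold change of -0.15 in the limma fit, against -0.04 for all regions that were not members. Among the 434 of them with at least 40 CPM in controls it was -0.21, against -0.18 for all strong regions that were not members. Of the 981, limma called 2.14% lower and 7.95% higher, against 1.12% and 15.2% of all regions that were not members. They come from the same 6 hearts, and a strong region that was lower could not be among them unless it missed a condition.

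In promoter sequence, 365 protein-coding promoters of 338 genes in the RefSeq table had their start inside a member region. Their median GC content was 66.7%, against 63.3% in the 5191 promoters inside other strong regions and 56.3% in all 21263 protein-coding promoters, each 300 bases long. AGGTCA was in 11.5% of the member promoters, 10.8% of those in other strong regions and 14.7% of all. The NBRE, AAAGGTCA, was in 0 of 365, in 47 of 5191 (0.905%) and in 1.30% of all. If promoters were independent, 0 of 365 would allow a share of up to 0.822%. Promoters of the same gene are not independent, and whether the share was lower than in other strong regions was not tested. CCAAT was in 27.4%, 37.6% and 38.2%, CCGGAAG in 19.2%, 24.1% and 11.6%, and CACGTG in 14.0%, 10.2% and 7.84%. These shares describe the letters of the window and say nothing of whether a factor was bound.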

How the data were processed

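NR4A2 ChIP-seq signal in ventricles of 6 separate mice was analysed. The series has 9 samples, and the antibody test samples and the input (3) were not used. The deposited table gives CPM per region in columns the authors made with library scaling factors. Per the submitters' processing notes, reads were aligned with BWA to mouse genome GRCm38 (mm10). Labels describe Drosophila spike-in chromatin, and no source used here says whether these CPM use it. The deposited log2 fold changes and p-values gave only the authors' calls of lower and higher.

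Every CPM value was a whole number of reads (tolerance 0.001). The main test was limma 3.58.1 (R 4.3.3) on log2(CPM + 1), with trend, robust variance and Benjamini-Hochberg adjusted p under 0.05, over all 16884 regions. edgeR 4.0.16 and DESeq2 1.42.0 on the recovered counts were alternatives to the authors' deposited scale. The limma step was also run on simulated data with levels and dispersions taken from these libraries. Regions were tied to genes within 10 kb with RefSeq spans (GRCm38.p6), and 1 kb defined a gene end. Genes were named if among the 12 lowest ratios, the 8 highest control means, the 4 highest per list, those with 3 or more members, or next to a limit. Itpr1, Mcu, Jph2, Lpl, Pparg and the promoters shown were picked after their values were seen. The members and lists were chosen with earlier results of these data known. Intervals and floors cover counting error only. One item among the named genes is not reported here.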

Additional observations from a re-analysis of the deposited data

How the results depend on the processing

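Against 609 members, 398 met the conditions at a control minimum of 60 CPM, 275 at a ratio of 0.6, 1058 at a ratio of 0.75, 156 after centring on strong regions and 213 from reads with no scaling for depth. Without 1 mouse the number was 710 to 953, of which 418 to 534 were among the 609, since 5 mice make the conditions easier to meet. Against 536 regions called lower, 235 were called with the filter at the median level, 251 with DESeq2 and 270 to 454 without 1 mouse. The fewest came without NR4A2 mouse 3, and 354 without control mouse 3. A replicate block gave 580 calls. Same-numbered mice had correlations of -0.07, 0.06 and 0.03 in their deviations, and differently numbered mice -0.10 to 0.07. No pairing by number was seen, but 3 mice per group are too few to exclude one. For other regions at the genes of the members, chosen again each time, the median log2 fold change of -0.15 was -0.14 to -0.090 without 1 mouse (highest without control mouse 2, then -0.096 without NR4A2 mouse 1 and -0.11 without control mouse 1), and -0.21 in strong regions. The median ratio in mice left out was -0.41 at 200 CPM or more. The share within 1 kb of a gene end was 62.7% within 500 bp, 71.9% within 2 kb and 56.3 to 71.6% without 1 mouse, the lowest without control mouse 3. The other alternatives, among them edgeR (543 calls), both pseudocounts, a minimum of 30 CPM and overlap allowed, stayed within 1.5 times of each count. For 56 named regions, 440 of 448 log2 ratios stayed within the spread between mice, 8 moved, all under centring, and 0 changed sign. The choice itself keeps the sign of a member when 1 mouse is left out or the strong regions are centred. Leaving out 1 of 3 mice also seldom moves a mean by more than that spread. These counts therefore do not test the members. The causes were not tested. Depth limits the weak regions: 1 read was worth up to 1.81 CPM.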
